A study of Mus musculus with 8 samples.

Results

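The nuclear pore and nuclear transport genes described here are the nucleoporins whose symbol is Nup and a number, with Ranbp2, Tpr, Pom121, Aaas, Ndc1, Seh1l, Rae1, the importin alpha genes Kpna1 to Kpna4, Kpnb1, Xpo1 and Ran. This rule found 32 of the 18193 genes named on the array, and Tpr was not analysed here. Where a gene had several probe sets, the brightest by its mean over all 8 arrays was used, so that level is a matter of choice and not a result. The gene group was proposed with earlier results of these data in view, so its general direction is given as a description. A gene was tested where its log2 signal lay above 5 on at least 2 arrays. Of the 32 members, 31 passed that filter, and all 31 lay above 5 on all 8 arrays. Nup210, a membrane glycoprotein of the pore, did not pass, and its highest array read 4.81.

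The nuclear pore complex is a channel through the nuclear envelope built of stacked rings. Outer rings of Y-shaped complexes and an inner ring form the scaffold, membrane proteins anchor it, and nucleoporins with phenylalanine-glycine (FG) repeats fill the channel. Importins and exportins carry cargo through the FG repeats, and the small GTPase Ran, bound to GTP in the nucleus and to GDP in the cytoplasm, gives transport its direction. In dividing mammalian cells the pores are taken apart and rebuilt at each mitosis, the Y complex moves in part to kinetochores, and the number of pores grows through interphase.

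The arrays measured tumour cells sorted by EGFP driven by the promoter of PSF1, the product of Gins1, a subunit of the GINS complex of the replication fork. The 4 groups were EGFP-high and EGFP-low cells of Lewis lung carcinoma (LLC) and EGFP-high and EGFP-low cells of colon26, a mouse colon carcinoma line, and every group carried the reporter. Tumours grew under the skin of mice for 4 weeks (LLC) or 2 weeks (colon26), so the difference between the lines cannot be told apart from that in tumour age. Each group had 2 arrays, numbered 1 and 2. The labels call them biological replicates without saying whether they came from separate mice or tumours, so the p-values measure the spread among these arrays, and their small number limits the precision of every value. The mouse strain and whether a reporter line was a single clone are not stated in the labels.

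The promoter's own gene, Gins1, read 8.42 and 8.51 in LLC EGFP-high cells against 7.23 and 7.14 in LLC EGFP-low cells, and 8.29 and 8.38 in colon26 EGFP-high cells against 7.56 and 6.97 in colon26 EGFP-low cells. Its levels thus separated the sorts in both lines. Arrays numbered 1 and 2 stood apart in all 4 groups: the log2 difference between 3′ and 5′ control probe sets was 2.55 ± 0.13 on those numbered 1 and 0.18 ± 0.15 on those numbered 2 (SD, n = 4 each). EGFP-high and EGFP-low arrays of a pair read 2.70 and 2.49 in LLC pair 1, -0.01 and 0.14 in LLC pair 2, 2.41 and 2.60 in colon26 pair 1, and 0.35 and 0.23 in colon26 pair 2. The part of RNA representation in the results was not tested. Changes below are taken within pairs of the same line and number. Of the 31 members tested, 23 lay lower on the arrays numbered 2, with a median difference of -0.31 on the log2 scale, against 0 over all genes.

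The first comparison asked how pore and transport genes differ between cells with high and low PSF1 promoter activity. As the mean of the lines, 15 of the 31 members tested were higher in EGFP-high cells and 0 were lower at an adjusted p under 0.05 (limma with each pair as a block). Over all 12177 genes tested, 7.47% were called higher and 5.57% lower. The members called higher were Kpna2, Nup37, Nup43, Aaas, Nup85, Ndc1, Nup107, Nup205, Nup160, Nup155, Nup93, Nup54, Xpo1, Nup133 and Nup153. Their changes ran between 0.49 and 1.31 on the log2 scale, or 1.41 to 2.48-fold. The other 16 had changes between 0.01 and 0.50, and 0 of the 31 were lower at an unadjusted p under 0.05 in limma, against 10.8% of all genes. The median change of the members was 0.49, against 0.04 over all genes tested, and 31 of 31 changes were above 0, against 56.3% of all genes. Without colon26 pair 2, the number of members called higher was 5, with 240 of all genes called higher. Without the pair block limma called 0 of the 31 higher, with 9 at an unadjusted p under 0.05 (4.39% of all genes) and a smallest adjusted p of 0.13, and it called 0 of all genes higher.

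Markers of host cells moved with the sort. As the mean of the lines, limma placed 13 of 15 macrophage markers, 11 of 11 fibroblast markers and 4 of 6 endothelial markers tested lower in EGFP-high cells. The log2 of the summed signal of the 15 macrophage markers was 9.80 to 9.94 in LLC EGFP-high against 11.32 to 11.49 in LLC EGFP-low cells, and 10.57 to 11.17 in colon26 EGFP-high against 12.80 to 13.52 in colon26 EGFP-low cells. For the 11 fibroblast markers it was 13.33 to 13.40 in LLC EGFP-high against 14.98 to 15.56 in LLC EGFP-low cells, and 15.03 to 15.09 in colon26 EGFP-high against 15.29 to 15.59 in colon26 EGFP-low cells. The EGFP-low sorts thus had the larger sums of both marker sets in each line. In colon26, 5 of 11 fibroblast markers passed as lower and 0 as higher in limma. Col1a2 and Dcn averaged 13.18 and 13.20 in colon26 EGFP-high cells, against 13.52 and 13.56 in colon26 EGFP-low cells. Which cells gave the fibroblast marker signal was not tested. The endothelial sums overlapped between the sorts in LLC. Of the T cell and the epithelial markers, 3 each were tested and none passed in limma as the mean of the lines. The 5 epithelial markers summed to between 12.50 and 12.92 in the LLC sorts and between 7.31 and 7.63 in the colon26 sorts, lower in the line labelled colon carcinoma. In these bulk samples, fewer cells of a type and less RNA per cell cannot be told apart. Of the mitosis genes, 19 of 19 tested were higher in EGFP-high cells, with a median change of 1.78 as the mean of the lines. The part of host cells and of cells in mitosis in these changes was not tested.

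Within LLC, 8 members were higher and 0 lower in EGFP-high cells, where limma called 4.98% of all genes higher and 6.04% lower. They were Kpna2, Ndc1, Nup43, Nup37, Aaas, Nup85, Nup107 and Nup205. Without LLC pair 2 the count was 2, with 183 of the 12177 genes called higher. Within colon26, 4 members were higher and 0 lower, where 2.18% of all genes were called higher and 1.58% lower. They were Kpna2, Nup37, Nup160 and Nup107. Without colon26 pair 1 the count was 1, with 116 of all genes called higher, and without colon26 pair 2 it was 0, with 0 of all genes called higher. In each line 0 members were lower at an unadjusted p under 0.05 in limma, against 12.8% of all genes in LLC and 5.21% in colon26. Without the pair block limma called 0 members and 0 of all genes higher in either line. At an unadjusted p under 0.05 in that fit, 7 members were higher in LLC (2.83% of all genes) and 5 in colon26 (1.75% of all genes). Kpna2, Nup37 and Nup107 were thus called in each line, 5 members in LLC without passing in colon26, and 1, Nup160, in colon26 without passing in LLC.

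The paired changes were spread unevenly over the pairs. The median change of the 31 members was 0.46 and 0.41 in LLC pairs 1 and 2 and 0.28 and 0.66 in colon26 pairs 1 and 2. Over all genes the medians were 0.05, 0.03, 0.02 and 0.18 in the same pairs. In 23 of 31 members (74.2%) the change was above 0 in all 4 pairs, as it was for 21.4% of all genes tested. Of the others, 7 were higher in 3 pairs and 1, Nup210l, in 2. In LLC, both EGFP-high arrays lay above both EGFP-low arrays for 18 of 31 members (17.4% of all genes), and in colon26 for 14 (12% of all genes). In 12 members this held in both lines, as it can for no more than the 12% of all genes that showed it in colon26. For 0 members did both EGFP-high arrays lie below both EGFP-low arrays in either line (14.6% of all genes in LLC and 9.02% in colon26).

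**Figure D1:**
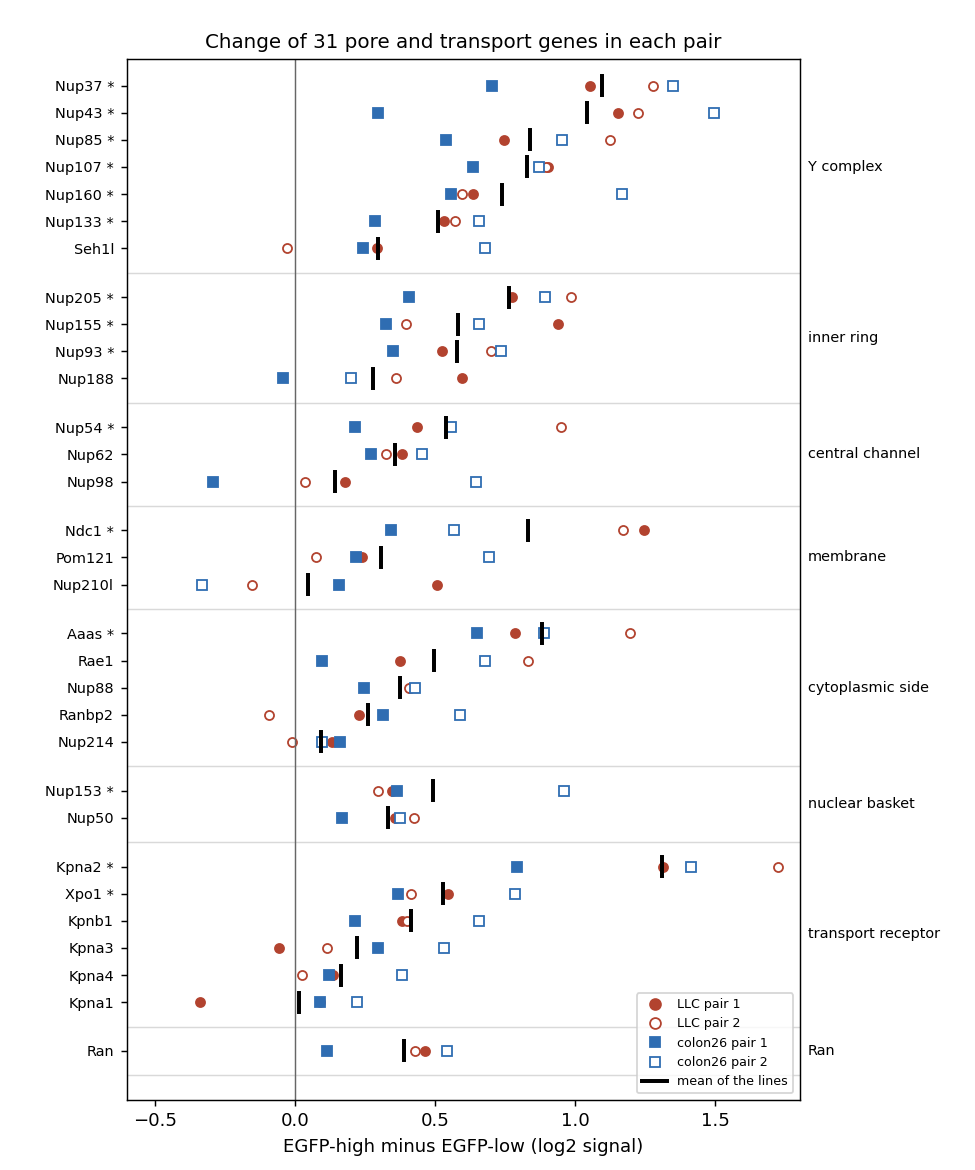
Change of each of the 31 tested genes in each pair, as EGFP-high minus EGFP-low log2 signal (x axis), with genes grouped by their place in the pore (y axis); circles are LLC and squares colon26, filled for pair 1 and open for pair 2, black bars are the mean of the lines, and * marks an adjusted p under 0.05 for that mean. Most points of the Y complex lie right of 0.3, and Kpna2 lies apart from the other 3 importin alpha genes shown, which lie between -0.34 and 0.53.

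The 6 receptors of nuclear transport had changes between 0.01 and 1.31 as the mean of the lines. Kpna2, an importin alpha that links cargo with a classical nuclear localisation signal to importin beta, read 13.13 and 12.95 in LLC EGFP-high cells against 11.82 and 11.22 in LLC EGFP-low cells. In colon26 it read 12.71 and 12.55 in EGFP-high cells against 11.92 and 11.13 in EGFP-low cells. No EGFP-low array reached an EGFP-high array of its line. The change was 1.52 ± 0.21 in LLC and 1.10 ± 0.21 in colon26 (SE). Averaged over the lines it was 1.31 ± 0.15 (SE), a 2.48-fold difference with an adjusted p of 0.00028 in limma. Among the 31 members Kpna2 had the largest change in 3 of the 4 pairs and the second largest in colon26 pair 2.

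The other 3 importin alpha genes of the group, which carry cargo of the same class of signal with differing preferences, did not pass in any comparison of the sorts. Outside the group, Kpna6 had a change of 0.035 as the mean of the lines (adjusted p = 0.9, limma). Kpna1 read 9.02 and 8.96 in LLC EGFP-high cells against 9.36 and 8.87 in LLC EGFP-low cells, and 9.12 and 8.85 in colon26 EGFP-high cells against 9.04 and 8.63 in colon26 EGFP-low cells. Kpna3 read 9.12 and 9.22 in LLC EGFP-high cells against 9.18 and 9.11 in LLC EGFP-low cells, and 8.97 and 8.76 in colon26 EGFP-high cells against 8.68 and 8.23 in colon26 EGFP-low cells. For Kpna4 the values were 10.96 and 10.16 in LLC EGFP-high against 10.83 and 10.13 in LLC EGFP-low cells, and 10.87 and 10.13 in colon26 EGFP-high against 10.75 and 9.75 in colon26 EGFP-low cells. The sorts overlapped for all 3 genes in LLC and for Kpna1 and Kpna4 in colon26, while both EGFP-high arrays of colon26 lay above both EGFP-low arrays for Kpna3. As the mean of the lines the 95% intervals were -0.28 to 0.31 for Kpna1, -0.06 to 0.51 for Kpna3 and -0.12 to 0.45 for Kpna4. By the chosen probe sets, the change of Kpna2 in each pair exceeded the highest change of these 3 genes, by 1.18 and 1.61 in LLC and by 0.50 and 0.88 in colon26.

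**Figure D2:**
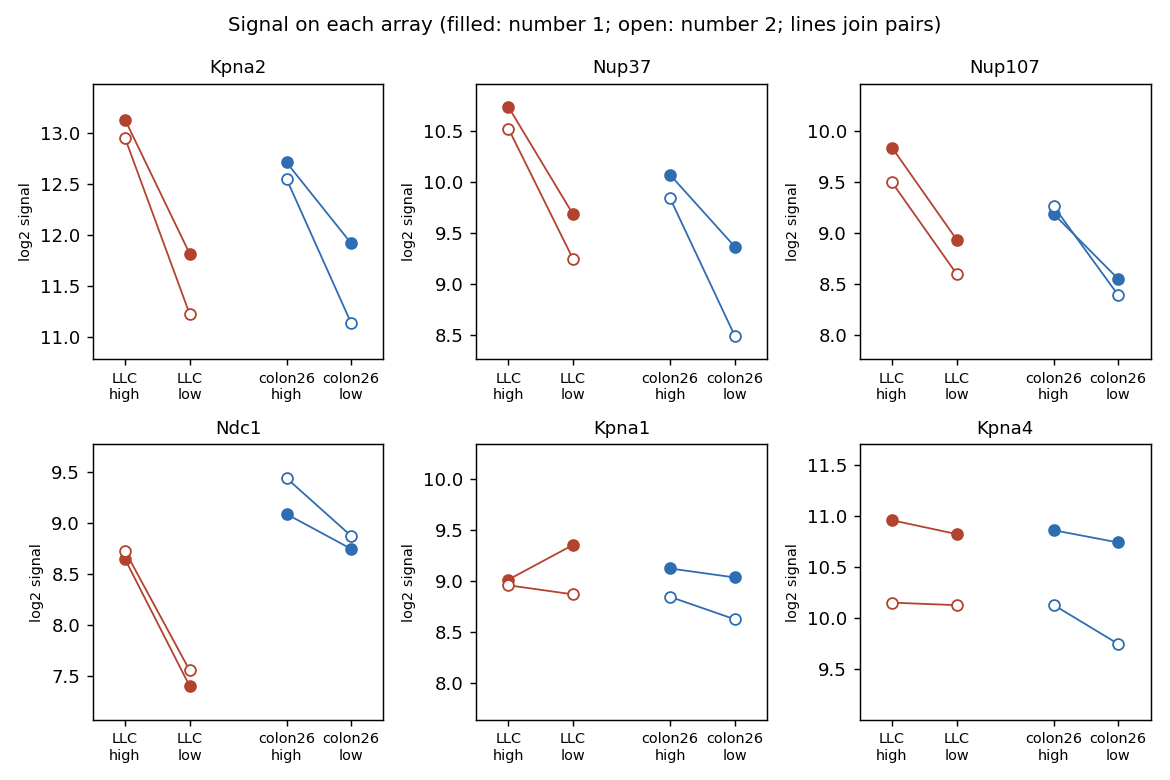
Log2 signal (y axis) on each array for Kpna2, Nup37, Nup107, Ndc1, Kpna1 and Kpna4 in the 4 groups (x axis), with lines joining the EGFP-high and EGFP-low arrays of a pair, filled points for number 1 and open points for number 2; every panel spans the same log2 range. The lines of Kpna2 and Nup37 drop towards EGFP-low in all 4 pairs, and those of Kpna1 and Kpna4 move by at most 0.38 in any pair.

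Promoter sequences of Kpna2, Nup37 and Ndc1 are printed because these genes were called and hold TTTGAA, the core of the cell cycle homology region that the MuvB complexes bind in genes of the late cell cycle. Kpna4 is printed beside them as the importin alpha gene that has a window in the RefSeq table (assembly GRCm38.p6) and a small change by its chosen probe set (0.17). Its other probe set, with a mean log2 signal of 5.89 against 10.45, had a change of 0.52 as the mean of the lines. Each run is the 250 bases before the gene's start, 5′ to 3′ on the gene's strand. Capitals mark TTTGAA and the CCAAT box, bound by NF-Y, on either strand, so that the reverse strand reads TTCAAA and ATTGG.
Kpna2, chr11:106999526-106999775, minus strand: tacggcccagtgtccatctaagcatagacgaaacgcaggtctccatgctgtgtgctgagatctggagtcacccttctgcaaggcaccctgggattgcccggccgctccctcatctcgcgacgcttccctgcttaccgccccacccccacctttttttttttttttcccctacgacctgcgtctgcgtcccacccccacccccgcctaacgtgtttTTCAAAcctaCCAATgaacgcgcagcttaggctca
Nup37, chr10:88146742-88146991, plus strand: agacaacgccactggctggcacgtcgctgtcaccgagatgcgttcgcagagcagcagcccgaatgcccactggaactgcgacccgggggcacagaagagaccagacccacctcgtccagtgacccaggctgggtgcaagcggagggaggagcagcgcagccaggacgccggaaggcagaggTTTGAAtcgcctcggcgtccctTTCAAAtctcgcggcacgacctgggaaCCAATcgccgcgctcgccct
Ndc1, chr4:107367797-107368046, plus strand: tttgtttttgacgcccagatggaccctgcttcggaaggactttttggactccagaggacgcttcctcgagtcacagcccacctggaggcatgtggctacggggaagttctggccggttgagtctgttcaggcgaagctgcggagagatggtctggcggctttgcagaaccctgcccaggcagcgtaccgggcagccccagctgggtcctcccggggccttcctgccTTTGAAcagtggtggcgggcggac
Kpna4, chr3:69127093-69127342, minus strand: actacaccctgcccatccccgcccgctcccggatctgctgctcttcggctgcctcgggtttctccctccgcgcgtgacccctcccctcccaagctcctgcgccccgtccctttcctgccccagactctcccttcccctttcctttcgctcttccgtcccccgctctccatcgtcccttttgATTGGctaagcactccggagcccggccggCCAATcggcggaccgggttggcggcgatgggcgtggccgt
In Kpna2, TTTGAA on the reverse strand began 35 bases before the start and CCAAT 25 bases before it. Nup37, of which the first of its windows in the table is printed, held TTTGAA 69 bases before the start, again on the reverse strand at 47, and CCAAT at 20. Ndc1 held TTTGAA 24 bases before the start and no CCAAT. Kpna4 held CCAAT at 69 on the reverse strand and at 40, and no TTTGAA.

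Of the 32 members, 26 had a window in that table. A member counted as holding a motif where any of its windows held it, whereas the shares of all windows count each window by itself. TTTGAA was present in 3 of the 13 members called as the mean of the lines that had a window, namely Kpna2, Ndc1 and Nup37, and in 2 of 12 other tested members, Nup98 and Pom121. It was present in 16.0% of all 32851 windows of the table. CCAAT was present in 5 of 13 called members (Kpna2, Nup155, Nup37, Nup93 and Xpo1) and in 7 of 12 others, against 33.8% of all windows. Kpna2, Nup37 and Nup98 held both motifs, as did 5.55% of all windows. The E2F site forms TTTCCCGC and TTTGGCGC, searched on both strands, were in 0 of the 25 tested members with a window and in 0.895% and 0.417% of all windows. These matches are descriptions of letters in a window, and the motifs do not overlap each other in the 4 printed sequences.

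Kpnb1, importin beta, which carries the importin alpha cargo complex through the pore, read 10.81 and 10.74 in LLC EGFP-high cells against 10.42 and 10.34 in LLC EGFP-low cells, and 10.42 and 10.35 in colon26 EGFP-high cells against 10.21 and 9.70 in colon26 EGFP-low cells. Its sorts did not overlap in either line, and the change of 0.41 ± 0.13 (SE) as the mean of the lines had an adjusted p of 0.069 in limma. Xpo1, the exportin CRM1 for leucine-rich export signals, read 11.31 and 10.88 in LLC EGFP-high cells against 10.76 and 10.47 in LLC EGFP-low cells, and 11.12 and 10.71 in colon26 EGFP-high cells against 10.76 and 9.93 in colon26 EGFP-low cells. Xpo1 was called as the mean of the lines, with a change of 0.53 ± 0.13 (SE, adjusted p = 0.027, limma), and in neither line by itself. Ran read 12.73 and 12.55 in LLC EGFP-high cells against 12.27 and 12.12 in LLC EGFP-low cells, and 12.85 and 12.95 in colon26 EGFP-high cells against 12.74 and 12.40 in colon26 EGFP-low cells. All EGFP-high arrays of Ran lay above the EGFP-low arrays of their line, and the change of 0.39 ± 0.13 (SE) had an adjusted p of 0.084 in limma. The chosen probe set of Ran is of a type that may also read near-identical transcripts. Of its other 4 probe sets above the filter, those of the same type had changes between 0.27 and 0.43 as the mean of the lines. That of another type had 0.68. Among the 6 transport receptors, Kpna2 and Xpo1 passed and 4 did not.

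Of the Y complex, the scaffold of the outer rings, 7 subunits carry a symbol under the naming rule, and 6 of these were called higher as the mean of the lines, with a median change of 0.83. Outside that rule, Sec13, a Y complex subunit shared with the COPII coat, had a change of 0.19 (adjusted p = 0.41, limma), and Ahctf1 (ELYS), which brings the complex to chromatin, had 0.31 (adjusted p = 0.14, limma). Nup37, a beta-propeller subunit, read 10.73 and 10.52 in LLC EGFP-high cells against 9.68 and 9.24 in LLC EGFP-low cells, and 10.07 and 9.84 in colon26 EGFP-high cells against 9.36 and 8.49 in colon26 EGFP-low cells. The sorts did not overlap in either line. The change was 1.17 ± 0.21 in LLC and 1.03 ± 0.21 in colon26 (SE), and 2.14-fold as the mean of the lines with an adjusted p of 0.00074 in limma.

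Nup43, another beta-propeller subunit, read 9.47 and 9.30 in LLC EGFP-high cells against 8.32 and 8.08 in LLC EGFP-low cells, and 8.01 and 8.14 in colon26 EGFP-high cells against 7.71 and 6.64 in colon26 EGFP-low cells. In colon26 the pair changes were 0.297 and 1.495, a wide gap, and the line's call did not pass (adjusted p = 0.1, limma). The mean of the lines was 1.04 ± 0.18 (SE, adjusted p = 0.0041, limma). Nup85, a scaffold subunit in an arm of the Y, read 9.52 and 9.97 in LLC EGFP-high cells against 8.77 and 8.84 in LLC EGFP-low cells, and 9.34 and 9.72 in colon26 EGFP-high cells against 8.80 and 8.77 in colon26 EGFP-low cells. Its change of 0.84 ± 0.14 (SE, adjusted p = 0.0029, limma) was present in all 4 pairs.

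Nup107, on the stem of the Y, had like changes in all 4 pairs. It read 9.84 and 9.49 in LLC EGFP-high cells against 8.93 and 8.60 in LLC EGFP-low cells, and 9.19 and 9.26 in colon26 EGFP-high cells against 8.55 and 8.39 in colon26 EGFP-low cells. The pair changes were 0.90 and 0.90 in LLC and 0.64 and 0.87 in colon26, and Nup107 passed in each line. Nup160, in its other arm, read 10.21 and 9.90 in LLC EGFP-high cells against 9.57 and 9.31 in LLC EGFP-low cells, and 10.47 and 9.97 in colon26 EGFP-high cells against 9.92 and 8.81 in colon26 EGFP-low cells. Its change of 0.62 ± 0.20 in LLC (SE) had an adjusted p of 0.078 in limma, and that of 0.86 ± 0.20 in colon26 had 0.042. The difference between the lines was -0.24, with a 95% interval of -0.87 to 0.38.

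Nup133, at the foot of the Y, read 9.19 and 8.29 in LLC EGFP-high cells against 8.66 and 7.72 in LLC EGFP-low cells, and 9.98 and 9.49 in colon26 EGFP-high cells against 9.70 and 8.83 in colon26 EGFP-low cells. The sorts overlapped in both lines, yet each pair was higher in EGFP-high cells. The change was 0.51 ± 0.13 (SE, adjusted p = 0.028, limma). Seh1l, the beta-propeller that the Y complex shares with the GATOR2 complex of mTORC1 signalling, was the member of the 7 that did not pass, with a change of 0.30 and a 95% interval of -0.01 to 0.60.

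In the inner ring, 3 of 4 members passed as the mean of the lines. Nup205, a large scaffold subunit, read 11.55 and 11.14 in LLC EGFP-high cells against 10.77 and 10.15 in LLC EGFP-low cells, and 10.71 and 10.001 in colon26 EGFP-high cells against 10.30 and 9.11 in colon26 EGFP-low cells. The sorts did not overlap in LLC and overlapped in colon26, and the change was 0.77 ± 0.14 (SE, adjusted p = 0.0047, limma). Nup155 read 9.11 and 8.23 in LLC EGFP-high cells against 8.17 and 7.84 in LLC EGFP-low cells, and 9.36 and 8.71 in colon26 EGFP-high cells against 9.04 and 8.05 in colon26 EGFP-low cells. This scaffold subunit, which touches the membrane, had a change of 0.58 ± 0.14 (SE, adjusted p = 0.024, limma).

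Nup93, the adaptor that holds the large inner ring subunits together, read 10.22 and 10.22 in LLC EGFP-high cells against 9.69 and 9.52 in LLC EGFP-low cells, and 9.82 and 9.66 in colon26 EGFP-high cells against 9.47 and 8.92 in colon26 EGFP-low cells. Its sorts did not overlap in either line, and the change was 0.58 ± 0.13 (SE, adjusted p = 0.017, limma). Nup188, the paralogue of Nup205, read 7.53 and 8.19 in LLC EGFP-high cells against 6.94 and 7.82 in LLC EGFP-low cells, and 7.86 and 8.97 in colon26 EGFP-high cells against 7.91 and 8.77 in colon26 EGFP-low cells. Nup188 did not pass, and its change of 0.28 had a 95% interval of -0.01 to 0.57.

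Of the nucleoporins that fill the channel, 1 of 3 passed. Nup54, an FG nucleoporin of the central trimer with Nup62, read 10.16 and 9.998 in LLC EGFP-high cells against 9.73 and 9.05 in LLC EGFP-low cells, and 10.48 and 10 in colon26 EGFP-high cells against 10.27 and 9.44 in colon26 EGFP-low cells. The change was 0.54 ± 0.14 (SE, adjusted p = 0.031, limma). Nup62 had a change of 0.36 (adjusted p = 0.092, limma). Its chosen probe set is of the same type as that of Ran. Of its others above the filter, that of the same type had a change of 0.46, and those of other types had 0.50 and 0.58. Nup98, whose gene also encodes the Y complex subunit Nup96, had a change of 0.14 with a 95% interval of -0.22 to 0.50.

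Among the membrane anchors, 1 of 3 tested passed. Ndc1, a transmembrane protein needed to build pores, read 8.64 and 8.72 in LLC EGFP-high cells against 7.40 and 7.55 in LLC EGFP-low cells, and 9.08 and 9.44 in colon26 EGFP-high cells against 8.74 and 8.87 in colon26 EGFP-low cells. The sorts did not overlap in either line. The change was 1.21 ± 0.18 in LLC (SE, adjusted p = 0.0022, limma) and 0.46 ± 0.18 in colon26 (SE, adjusted p = 0.24, limma). Pom121, another transmembrane anchor, had a change of 0.31 as the mean of the lines, and Nup210l, the paralogue of Nup210, had 0.05 with a 95% interval of -0.30 to 0.39.

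On the cytoplasmic side, 1 of 5 members passed. Aaas encodes aladin, which Ndc1 holds at the pore, and it read 8.04 and 8.68 in LLC EGFP-high cells against 7.25 and 7.49 in LLC EGFP-low cells, and 8.39 and 8.85 in colon26 EGFP-high cells against 7.74 and 7.96 in colon26 EGFP-low cells. The sorts did not overlap in either line. The change was 0.99 ± 0.19 in LLC and 0.77 ± 0.19 in colon26 (SE). Averaged over the lines it was 0.88 ± 0.13 (SE), with an adjusted p of 0.0018 in limma. The other 4 were Rae1, an mRNA export factor that binds Nup98, with a change of 0.50 (adjusted p = 0.053, limma), Nup88 with 0.37, Ranbp2 with 0.26 and Nup214 with 0.09. Ranbp2 forms the cytoplasmic filaments and acts as a SUMO ligase, and Nup88 and Nup214 work as partners there. In the nuclear basket, Nup153, an FG nucleoporin, had a change of 0.49 ± 0.14 (SE, adjusted p = 0.044, limma), and Nup50, which helps importins release their cargo, had 0.33.

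The second comparison asked whether the change between the sorts differed between the lines. For 0 of the 31 members did the LLC change differ from the colon26 change at an adjusted p under 0.05 in limma, where 0.427% of all genes were called with a larger change in LLC and 0.985% with a smaller one. At an unadjusted p under 0.05, 1 member had a larger change in LLC and 0 a smaller one, against 4.51% and 9.71% of all genes. That member was Ndc1, with a difference of 0.75, a 95% interval of 0.19 to 1.31 and an adjusted p of 0.22. For Kpna2 the difference was 0.42, with an interval of -0.24 to 1.08. The intervals for Kpna3, at -0.95 to 0.18, and Ranbp2, at -0.97 to 0.20, also included 0.

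Other probe sets of the same genes give readings that the rule did not use. The 32 members had 90 probe sets, and 25 members had more than 1. Above the filter there were 46 other probe sets of 22 members. Of these, 43 had a positive change as the mean of the lines and 43 had the sign of the chosen probe set. Their median change was 0.42, against 0.37 for the chosen probe sets of the same members. Across these probe sets the changes of the other and the chosen ones had a Pearson r of 0.7, a description over probe sets that share arrays and samples. For Ndc1, the other probe sets had changes of 0.85 and 1.06, and for Nup43 the other had 0.94. The Ndc1 probe set with 1.06 averaged 5.55, near the filter. The other probe set of Kpna4 had 0.52 against 0.17 for the chosen one, at a mean signal of 5.89 against 10.45. Those of Kpna3 had 0.32 and 0.46 against 0.22, and those of Kpna1 ran between -0.08 and 0.23 against 0.01. The negative ones were a probe set each of Ranbp2 (-0.30), Kpna1 (-0.08) and Seh1l (-0.05). Of the called members, Kpna2, Nup37, Nup107, Aaas and Nup93 rest on a single probe set each. The other probe set of Nup160 lay above 5 on 0 arrays.

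**Figure D3:**
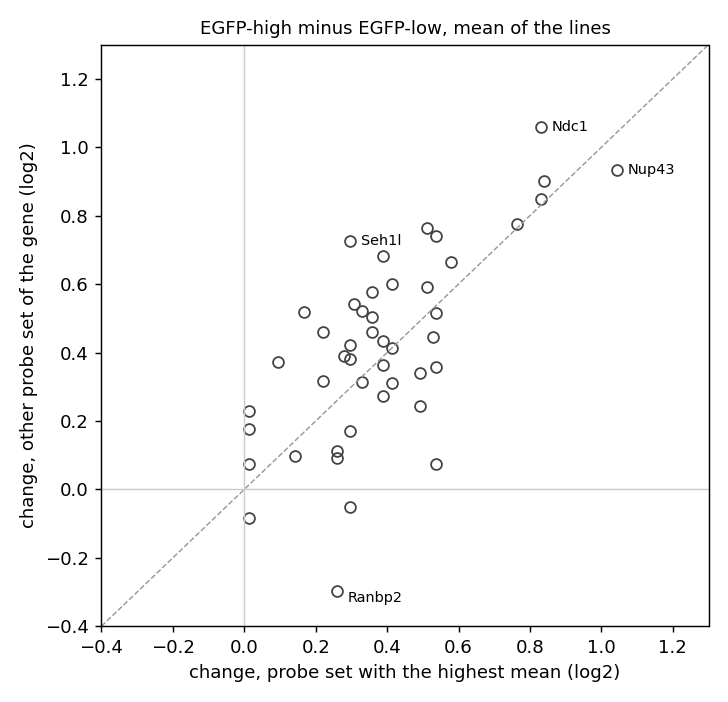
Change between the sorts as the mean of the lines (log2) for the probe set with the highest mean (x axis) and for each of the 46 other probe sets above the filter (y axis), a point for each; the dashed line marks equal changes. Of the 46 points, 43 lie above 0 on the y axis, and the lowest belongs to Ranbp2.

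The third comparison set the lines against each other within a sort, with the array number as a block shared by the lines. In EGFP-high cells, 4 members were higher and 3 lower in LLC than in colon26, where limma called 15.7% of all genes higher and 23.5% lower. In EGFP-low cells, 4 were higher and 3 lower, where 21% of all genes were called higher and 25.2% lower. The members' shares, 12.9% higher and 9.68% lower in each sort, lay below those of all genes. The split depended on the scaling of the arrays: it was 9 higher and 2 lower with quantile normalization and 5 and 1 with median centring in EGFP-high cells, and 5 and 6, and 7 and 3, in EGFP-low cells. In the same order, the calls over all genes were 2379 and 2527, and 2181 and 2144, in EGFP-high cells. They were 2545 and 3330, and 3190 and 2090, in EGFP-low cells. Median centring moved the median difference of all genes to 0.03 in EGFP-high and 0.12 in EGFP-low cells, against -0.09 and -0.07 without it. Without the block, 0 members passed in EGFP-high cells at an adjusted p under 0.05 in limma, where 4.33% of all genes were called higher and 7.01% lower. At an unadjusted p under 0.05 in the same fit, 1 member was higher and 1 lower, against 9.7% and 14.9% of all genes. In EGFP-low cells, without the block, 0 were higher and 1 was lower, where 5.81% of all genes were called higher and 8.19% lower.

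The counts of calls moved when single arrays were left out, for the members and over all genes alike. Such a fit leaves 1 array in a group, so only sizes are given. In EGFP-high cells the members' median LLC minus colon26 difference was 0.06 with all arrays. Without LLC EGFP-high array 1 or 2 it was 0.17 or 0.06, and without colon26 EGFP-high array 1 or 2 it was 0.01 or 0.11. Over all genes the median was -0.09 with all arrays, and it lay between -0.12 and -0.06 without these arrays. In EGFP-low cells the members' median was 0.08 with all arrays. Without LLC EGFP-low array 1 or 2 it was 0.16 or 0.12, and without colon26 EGFP-low array 1 or 2 it was 0.28 or 0.01. Over all genes the median was -0.07 with all arrays, and it lay between -0.12 and -0.003 without these arrays.

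Passing in both sorts, with the same direction, were 5 members, as were 30.2% of all genes. Nup43 was higher in LLC by 1.32 ± 0.27 in EGFP-high and by 1.02 ± 0.27 in EGFP-low cells (SE), and its other probe set had differences of 1.40 and 0.83. Nup205 was higher in LLC by 0.99 ± 0.21 in EGFP-high and 0.76 ± 0.21 in EGFP-low cells (SE), but its other probe set gave 0.14 and -0.07. That probe set of Nup205 averaged 5.96 over the arrays, near the filter of 5, against 10.47 for the chosen one. Probe sets of these genes thus gave like differences for Nup43 and unlike ones, at unlike signal, for Nup205.

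Nup133, Ndc1 and Nup188 were lower in LLC than in colon26. For Nup133 the difference was -0.99 ± 0.18 in EGFP-high and -1.07 ± 0.18 in EGFP-low cells (SE), with adjusted p-values of 0.0036 and 0.0022 in limma. The difference for Ndc1 was -0.58 ± 0.17 in EGFP-high and -1.33 ± 0.17 in EGFP-low cells (SE). Its other probe sets gave -0.01 and -0.22 in EGFP-high and -0.81 and -0.10 in EGFP-low cells. The probe set with -0.22 and -0.10 averaged 5.55 and lay above 5 on 4 arrays. For Nup188 the difference was -0.56 ± 0.18 in EGFP-high and -0.96 ± 0.18 in EGFP-low cells (SE). Its other probe set, which averaged 4.91 and lay above 5 on 3 arrays, gave -0.34 and -0.28. Of the remaining calls, Nup37 (0.67) and Nup88 (0.49) passed in EGFP-high cells, and Ranbp2 (0.73) and Kpna3 (0.69) in EGFP-low cells, each higher in LLC. Whether these differ between the sorts is the test of the second comparison, which none of them passed.

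**Figure D4:**
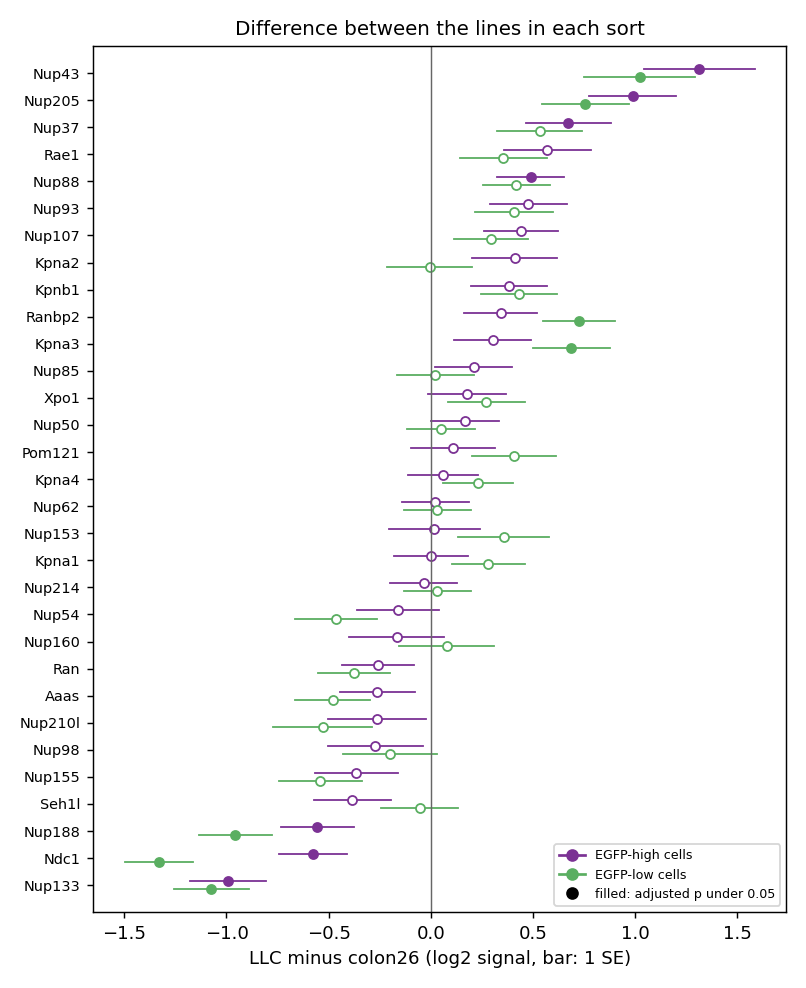
LLC minus colon26 difference in log2 signal (x axis) for each of the 31 tested genes (y axis) in EGFP-high (purple) and EGFP-low (green) cells; bars span 1 SE to each side and filled points have an adjusted p under 0.05. Nup43 and Nup205 lie right of 0 and Nup133, Ndc1 and Nup188 left of 0 in both sorts.

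Other genes of nuclear transport were read from lists that hold no member, chosen with earlier results known. As the mean of the lines 0 genes of these lists were lower in EGFP-high cells. Over all genes limma called 7.47% higher and 5.57% lower in that comparison. Of the other importins and adaptors 2 of 11 were higher, Ipo11 (0.50) and Ipo5 (0.49), and of the other exportins 2 of 6, Cse1l (0.64), which returns importin alpha to the cytoplasm, and Xpo4 (0.50). In the Ran cycle 3 of 5 were higher, among them Rcc1 (0.89), the exchange factor that loads Ran with GTP on chromatin, and Rangap1 (0.74), which makes it hydrolyse GTP in the cytoplasm. The median change of this list was 0.53, and those of the importin and exportin lists were 0.27 and 0.34, against 0.04 over all genes. Of the mRNA export factors 5 of 15 were higher, with Alyref (0.85), a TREX adaptor, and Nxt1 (0.79), the partner of the export receptor Nxf1, as examples. Of pore-associated proteins outside the rule 3 of 9 were higher, with Mad2l1 (1.33), a spindle checkpoint protein that docks at the pore in interphase, and Senp1 (0.70), a SUMO protease. Gle1 (0.47) is counted as higher both here and among the mRNA export factors. Of lamina and nuclear envelope genes 6 of 13 were higher, led by the B-type lamins Lmnb2 (1.24) and Lmnb1 (0.94). In LLC 4 of 5 Ran cycle genes passed as higher (4.98% of all genes) and in colon26 0 of 5 (2.18% of all genes). The difference between the lines passed in limma for 0 of the 5.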

How the data were processed

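Sorted cells' total RNA was labelled with biotin and read on 1-colour Affymetrix arrays of the mouse, per the labels' protocols. The deposited log2 values of 45101 probe sets on 8 arrays were made by the authors with RMA, as named in the submitters' processing notes; software and options were not given in the sources used here. For the 4 colon26 samples, titles, source and cell line were followed, since the description field names LLC. A single gene symbol was attached to 34945 probe sets, while 932 had several, 9160 had none and 64 were controls. Of the gene symbols, 18032 of 18193 matched RefSeq.

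The 12177 genes above a log2 signal of 5 on at least 2 arrays were fitted in limma 3.58.1 (R 4.3.3), with Benjamini-Hochberg adjustment over all of them at 0.05. EGFP-high minus EGFP-low used each pair of a line and number as a block, leaving 2 residual degrees of freedom (8.25 prior), and LLC minus colon26 used the number as a block shared by the lines (3 residual, 5.16 prior). The pairing follows the labels' numbers. Same-numbered high and low arrays deviated together from their group means, with r of 0.887 in LLC and 0.838 in colon26 over all genes. A difference between numbers 1 and 2 shared by both lines would give such r too. The correlation therefore cannot tell a pair within a line from a shared number. The script was tested on simulated data.

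The members and lists were chosen with earlier results of these data known. Array values are given for up to 12 members that passed as the mean of the lines, those that passed in a single line, the largest differences between the lines, and Ran, Xpo1, Kpnb1 and Kpna1 to Kpna4. From each other list, the 2 passing genes with the smallest p are named. Motifs and printed promoters were chosen after the values were seen. Alternatives were no block, other filters, scalings, moderation and probe set choices, and leaving out arrays. Figures used matplotlib 3.10.9 in Python 3.11.15.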

Additional observations from a re-analysis of the deposited data

Results flagged for a closer look

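Nup210 was looked at again because its pairs moved in opposite directions in the lines. It read 4.76 and 4.46 in LLC EGFP-high cells against 4.41 and 4.15 in LLC EGFP-low cells, and 4.33 and 4.47 in colon26 EGFP-high cells against 4.58 and 4.81 in colon26 EGFP-low cells. The LLC change minus the colon26 change was 0.624. All arrays lay below the filter of 5, and the difference was not tested.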

How the results depend on the processing

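Of 41 calls of members over all comparisons, 41 kept their direction in every other setting run and 0 reversed. Other blocks, filters and moderation leave the size of a change as it was, so direction could not move there. It could move only with other scalings, averaged probe sets or left-out arrays. Without the replicate block 40 of the 41 were lost: the members called higher in EGFP-high cells fell to 0 in LLC, colon26 and the mean of the lines, and the line differences to 0 higher and 0 lower in EGFP-high and 0 higher and 1 lower in EGFP-low cells. Outside that setting and the left-out arrays, 33 of 312 repeats of a call were lost. In LLC, 13 members were higher with a filter of 7 (748 of 8400 genes) and 16 with trend and robust moderation (837 of 12177 genes). With every probe set tested, 1 probe set, of Ranbp2, was lower. In colon26 the count was 1 with a replicate block shared by the lines, 2 with no filter, 7 with a filter of 7, 0 with quantile normalization, 8 with median centring and 9 with trend and robust moderation. Over all genes the calls higher in colon26 were 103, 164, 372, 44, 539 and 373 in the same order, against 266 in the main fit. The fits held 18193 genes with no filter and 8400 with a filter of 7. In EGFP-high cells the members higher in LLC than in colon26 were 9 with quantile normalization (2379 of all genes). Those lower were 1 with median centring (2144 of all genes). In EGFP-low cells 7 were higher with median centring (3190 of all genes) and 7 with trend and robust moderation (2705). Those lower were 5 with no filter (6225 of all genes), 6 with quantile normalization (3330) and 5 with trend and robust moderation (3112). The cause of these shifts was not tested.

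With arrays left out, the members higher in EGFP-high cells ranged between 2 and 8 in LLC, 0 and 4 in colon26 and 5 and 13 in the mean of the lines. Those higher in LLC than in colon26 ranged between 0 and 6 in EGFP-high and 0 and 11 in EGFP-low cells, and those lower between 0 and 3 and between 3 and 4. Under a pair block, leaving out an array removes its pair. The calls over all genes moved in these fits too. The ranges therefore cannot tell a dependence of the members on single arrays from a change in power over all genes. As the mean of the lines, the members' median change lay between 0.343 and 0.605 without a pair, against 0.491 with all arrays. Over all genes the median lay between 0.027 and 0.066, against 0.038. Kpna2, Nup37, Nup43, Ndc1 and Nup107 kept their call as the mean of the lines in all 12 settings that had a block. With 2 arrays a group and 2 residual degrees of freedom, changes under about 0.5 on the log2 scale were mostly not called.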
